A study of Danio rerio with 6 samples.

Results

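The Wnt ligands of the zebrafish and the proteins that secrete, bind, modulate and transmit them are described here in larvae that lack P2RY11. The genes were taken by a rule on their names, which was set with earlier results of these data known. It names the wnt genes, the families fzd, dkk, sfrp, axin, dvl, tcf7, rspo and porcn, and lrp5, lrp6, lef1, wls, ror1, ror2, ryk, apc and apc2. The rule took 68 of the 19071 genes in the expression files. They comprised 22 ligands, 3 genes of ligand secretion, 17 receptors and coreceptors, 12 secreted modulators, 9 cytoplasmic genes and 5 nuclear factors.

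RNA sequencing was performed on whole larvae at 3 dpf (days post fertilization), with 3 libraries of P2RY11 mutants (genotype p2ry11 knockout) and 3 libraries of WT siblings. P2Y11 is a cell surface receptor for extracellular ATP, and the study asked what its loss does to sleep, to hypocretin neurons and to the inflammatory response. The mutants carried a CRISPR/Cas9 deletion in p2ry11 that shifts the reading frame in every cell, and the siblings carried no mutation by their label. Both groups were raised in the same medium without treatment, and each library came from pooled larvae of 1 mutant line. Whether the 3 pools in each group were drawn from different clutches is not stated, and p-values below therefore measure only how far these libraries spread.

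Wnt proteins are secreted lipid-bearing signals. In the β-catenin branch they bind a Frizzled receptor together with the coreceptor Lrp5 or Lrp6, Dishevelled proteins then stop the complex of Axin and Apc from marking β-catenin for destruction, and β-catenin enters the nucleus and acts with Tcf and Lef proteins. Other Wnt signals run through Ror and Ryk receptors and the planar cell polarity genes and steer cell shape and movement. In the fish embryo these pathways set the posterior fate of the neural plate, the midbrain and hindbrain, the fins, the inner ear and the tail.

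The values were FPKM (fragments mapped to a gene relative to its transcript length and to all mapped fragments), which are scaled to transcript length, so that levels can be compared between genes. Fold changes below are log2 differences, mutant minus WT sibling, on the log2(FPKM + 1) scale, which understates the change of low genes. A gene was called when its adjusted p was under 0.05 (limma, two-sided, Benjamini-Hochberg over the 18432 genes with a mean of at least 0.5 FPKM). The sequencing depth is unknown. p2ry11 itself was at 0.707, 0.853 and 1.02 FPKM in the WT siblings and was listed at 0 in the 3 mutants, with the smallest p that 3 against 3 allows (exact permutation test, two-sided, p = 0.1). The median FPKM over all genes was 4.52, 4.84 and 3.81 in the WT siblings and 5.1 to 5.39 in the mutants. Over all tested genes the log2 difference had a median of 0.16, which median-of-ratios scaling took to 0.012. WT sibling replicate 3 stood apart: its log2 values correlated at 0.9648 and 0.9678 with the other WT siblings (Pearson's r across genes, which are not independent replicates), against 0.9934 between those libraries and 0.99 to 0.9905 among the mutants. Differences without it are given beside many of the genes below, and for every tested Wnt pathway gene in the plot of log2 differences by role.

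All 68 genes were detected in all 6 libraries. Summed over them, the FPKM were 535, 564 and 488 in the WT siblings and 627, 610 and 590 in the mutants, so the groups did not overlap, and neither did the medians of all genes above. Of the genes, 20 had a mean of at least 10 FPKM, 38 lay between 1 and 10, and 10 lay under 1. Nuclear factors had the highest median level (14.4 FPKM), followed by the cytoplasmic genes (6.98 FPKM) and the receptors (6.05 FPKM), and the ligands had the lowest (1.62 FPKM). The levels in each library span from 0.0236 FPKM for wnt10a in WT sibling replicate 3 to 58.9 FPKM for fzd7a in the same library.

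**Figure D1:**
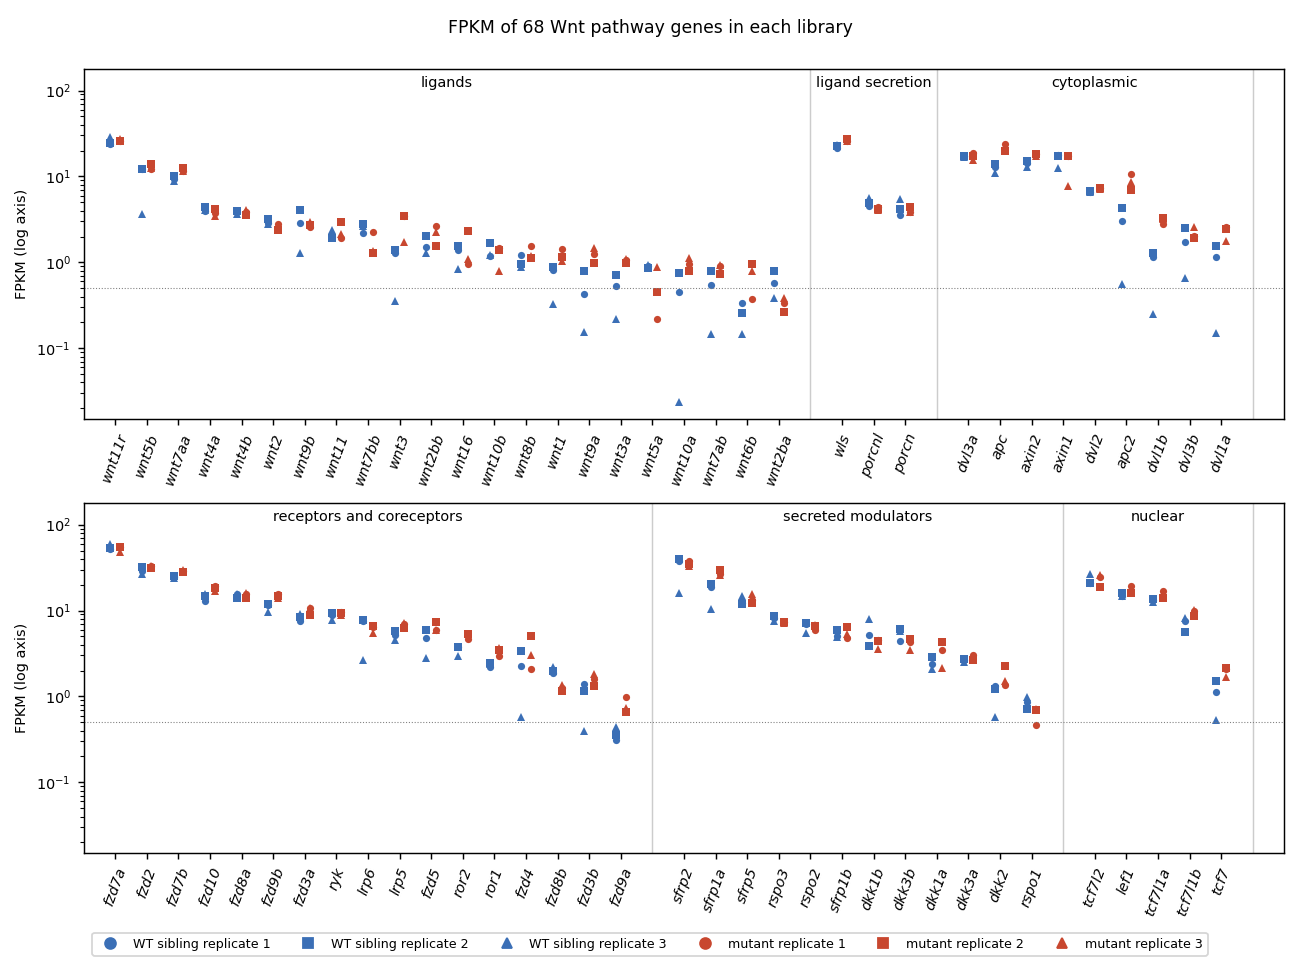
FPKM on a log axis of the 68 Wnt pathway genes in each of 6 libraries, grouped by role and ordered by mean level; blue, WT siblings; red, P2RY11 mutants; the dotted line marks the filter of 0.5 FPKM. A few genes hold most of the summed FPKM of the wnt, fzd, dvl and sfrp families. Blue triangles (WT sibling replicate 3) lie far below the other WT siblings for genes such as wnt5b, wnt3, apc2, dvl1a, dvl1b, lrp6 and sfrp2.

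Of 66 tested genes, 2 rose in the mutants, apc (ENSDARG00000058868) and dvl1b (ENSDARG00000055552), and none fell. Both encode cytoplasmic proteins: Apc is a scaffold of the β-catenin destruction complex, and Dvl1b is a Dishevelled that acts between Frizzled and that complex. The share of 3.03% stands beside 8.23% called higher and 3.98% called lower among all tested genes. At an unadjusted p under 0.05 there were 22 genes higher and 2 lower, where 26.0% and 9.21% of all genes were higher and lower. The 3 mutants lay above every WT sibling library in 27 of the 66 (40.9%, against 35.0% of all genes) and below every one in 4 (6.06%, against 11.7% of all genes), and 35 overlapped. The median log2 difference of the 66 was 0.21, which is 0.050 above that of all genes, and 36 lay above the median of all genes. In RNA from whole larvae, a change in the number of cells that express a gene and a change in RNA per cell cannot be told apart.

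The adjusted p lay between 0.05 and 0.1 in 17 of the 66 genes (25.8%, against 14.6% of all genes), 16 of them with a positive difference. WT sibling replicate 3 was the lowest of the 6 libraries in 38 of the 66 (57.6%, against 47.1% of all genes) and lay more than 2-fold below the mean of the other WT siblings in 18 (27.3%, against 17.9%). Without it, 16 genes were called higher (24.2%, against 20.1% of all genes) and 1 lower (1.52%, against 8.11%). The 14 added to apc and dvl1b were apc2, axin2, dvl1a, fzd10, fzd9a, fzd9b, ror1, ror2, sfrp1a, tcf7l1b, wls, wnt3, wnt7aa and wnt9a, and the 1 lower was fzd8b. Median-of-ratios scaling called apc and dvl1b higher and fzd8b lower, where 3.62% of all genes were called higher and 5.70% lower. By an unadjusted p under 0.05 together with a fold above 1.5, the criteria of the study's methods applied to this fit, 7 genes were higher (10.6%, against 9.51% of all genes) and 0 lower (against 3.28%). The fold was taken on the log2(FPKM + 1) scale. The 7 were apc, apc2, dvl1a, dvl1b, sfrp1a, wnt3 and wnt9a. By the ratio of mean FPKM, mutant to WT sibling, further genes at an unadjusted p under 0.05 passed a fold of 1.5. These were fzd8b (0.629) and wnt7bb (0.641), lower, and fzd9a (2.14), tcf7 (1.87), wnt1 (1.80), wnt10a (2.33) and wnt3a (2.15), higher.

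**Figure D2:**
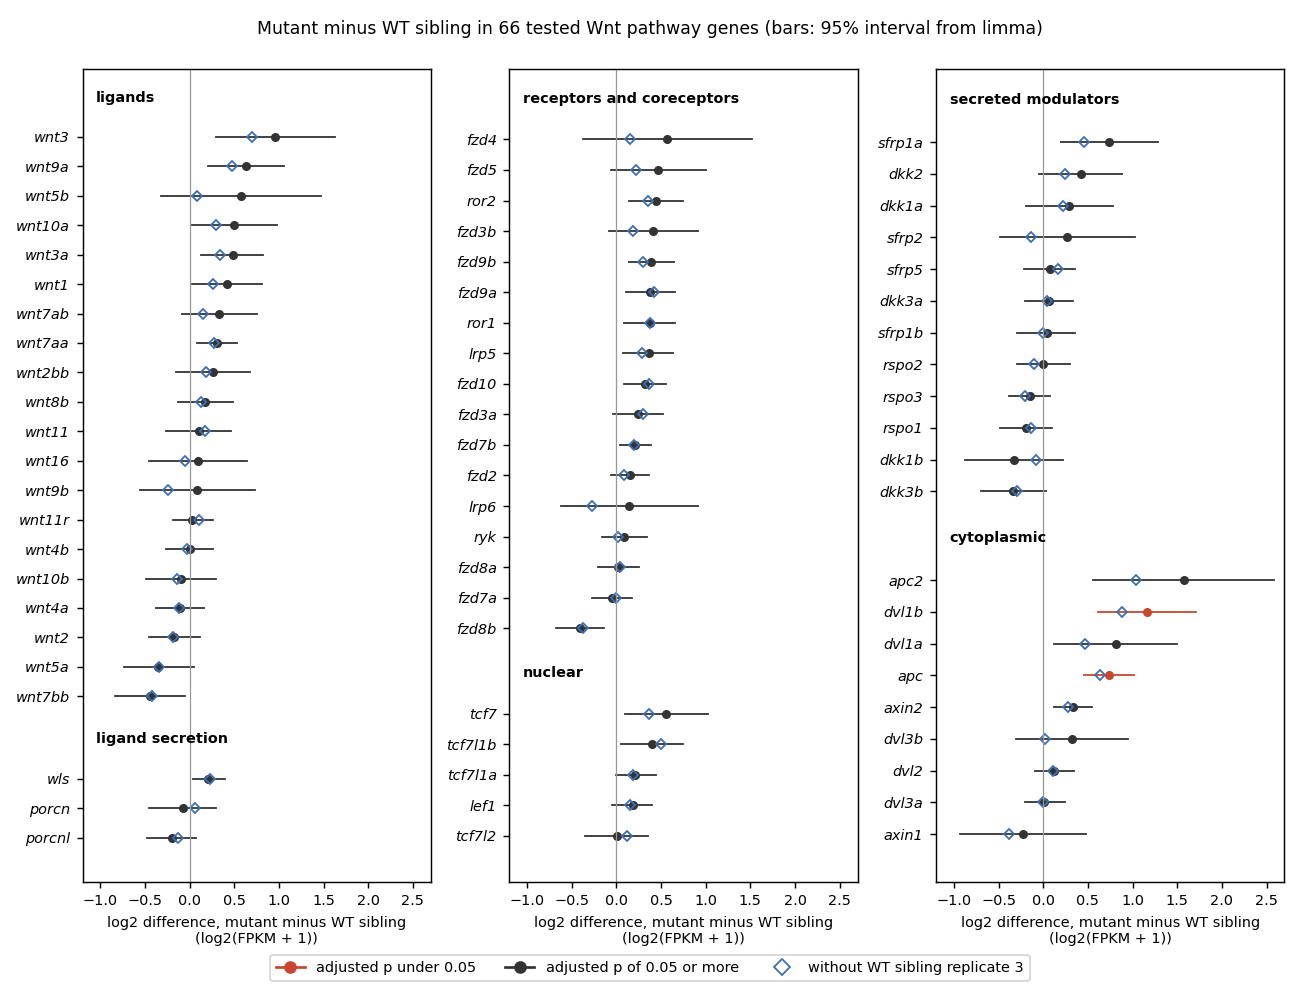
Log2 difference, mutant minus WT sibling, on the log2(FPKM + 1) scale for the 66 tested Wnt pathway genes by role; dots, all 6 libraries with 95% intervals from limma; red, adjusted p under 0.05; open diamonds, the same difference without WT sibling replicate 3. Only apc (0.73) and dvl1b (1.16) are red, and the diamonds of wnt5b, apc2, lrp6 and sfrp2 lie well to the left of their dots.

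Among the cytoplasmic genes, apc was at 12.9, 13.9 and 10.9 FPKM in the WT siblings and at 23.8, 20.0 and 20.7 FPKM in the mutants. Every mutant library was higher than every WT sibling library, and WT sibling replicate 3 was the lowest by a small step only. The mean rose from 12.5 ± 1.54 to 21.5 ± 2.0 FPKM (SD, n = 3), 1.71-fold, with a log2 difference of 0.73 ± 0.118 (SE) and an adjusted p of 0.0156 (limma). The difference was 0.64 without WT sibling replicate 3 (adjusted p = 0.00259) and 0.55 under median-of-ratios scaling (adjusted p = 0.0186). The call was lost when WT sibling replicate 1 or any 1 mutant was left out, with adjusted p-values of 0.0547 to 0.0757 (limma) and differences of 0.66 to 0.78.

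dvl1b was at 1.14, 1.30 and 0.251 FPKM in the WT siblings and at 2.80, 3.29 and 3.18 FPKM in the mutants. The groups did not overlap, and WT sibling replicate 3 was far below the other WT siblings. The mean rose from 0.895 ± 0.563 to 3.09 ± 0.256 FPKM (SD, n = 3), with a log2 difference of 1.16 ± 0.235 (SE) and an adjusted p of 0.0266 (limma). Without WT sibling replicate 3 the difference was 0.88 (adjusted p = 0.00198). The call was lost without WT sibling replicate 1 or without any 1 mutant (adjusted p = 0.0667 to 0.114, limma) and with a pseudocount of 0.1 (adjusted p = 0.0636).

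The relatives of both genes had positive differences that did not pass the test. apc2, the second Apc gene, was at 3.06, 4.34 and 0.562 FPKM in the WT siblings and at 10.6, 6.98 and 8.52 FPKM in the mutants, 3.28-fold in the means. Its log2 difference of 1.57 ± 0.429 (SE) was larger than that of any other of the 66, with an adjusted p of 0.0557 (limma). Without WT sibling replicate 3 the difference was 1.04 and the adjusted p 0.00452. dvl1a, the other Dvl1 copy, was at 1.17, 1.55 and 0.151 FPKM in the WT siblings and at 2.58, 2.46 and 1.78 FPKM in the mutants (0.81, adjusted p = 0.101 by limma, and 0.47 with 0.0475 without WT sibling replicate 3). In all 4 genes the mutants lay above every WT sibling, and WT sibling replicate 3 was the lowest library.

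The 3 other Dishevelled genes had smaller differences and were not called. dvl3a, the highest of the family, was at 17.1, 17.3 and 16.7 FPKM in the WT siblings and at 18.7, 17.4 and 15.5 FPKM in the mutants (log2 difference 0.013). dvl2 had a difference of 0.12 and dvl3b of 0.32, with adjusted p-values of 0.369 and 0.411 (limma), and that of dvl3b was 0.022 without WT sibling replicate 3 (adjusted p = 0.928). dvl2 turned to -0.049 under median-of-ratios scaling. The low copies dvl1a and dvl1b together made up 8.29%, 9.67% and 1.66% of the summed dvl FPKM in the WT siblings and 16.1% to 17.7% in the mutants. This share does not depend on the overall scale of a library, and it was not tested. It was formed from the called dvl1b and from dvl1a, which was added after its values were seen.

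Axin proteins hold the destruction complex together, and axin2 is also a widely used target gene of β-catenin. axin2 was at 14.2, 15.0 and 12.9 FPKM in the WT siblings and at 18.1, 18.2 and 17.5 FPKM in the mutants. These groups were tight and did not overlap, but the difference of 0.33 ± 0.0895 (SE) did not reach the threshold (adjusted p = 0.0530, limma). It passed without WT sibling replicate 3 (0.28, adjusted p = 0.0247) and was 0.15 under median-of-ratios scaling (adjusted p = 0.238). axin1 was at 17.9, 17.5 and 12.6 FPKM in the WT siblings and at 17.4, 17.5 and 7.77 FPKM in the mutants, so that mutant replicate 3 alone gave it a negative difference (-0.23, adjusted p = 0.609 by limma, and 0.13 without that library). It was -0.38 without WT sibling replicate 3.

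**Figure D3:**
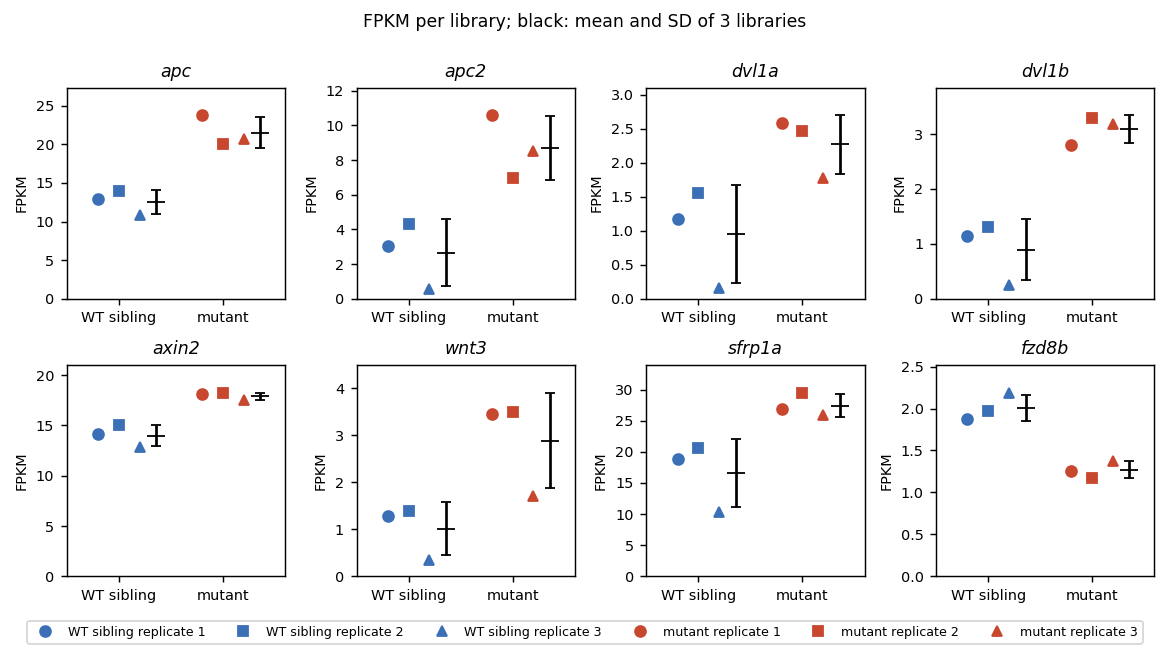
FPKM in each library (linear axes from 0) of apc, apc2, dvl1a, dvl1b, axin2, wnt3, sfrp1a and fzd8b; blue, 3 WT siblings; red, 3 P2RY11 mutants; black, mean and SD. In the first 7 genes every mutant lies above every WT sibling, with WT sibling replicate 3 (triangle) the lowest point, and in fzd8b every mutant lies below.

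None of the 20 tested ligands was called by limma. At an unadjusted p under 0.05, 6 were higher and 1 lower, where 26.0% and 9.21% of all genes were. 3 ligands carried most of the summed ligand FPKM in every library: wnt11r, wnt5b and wnt7aa made up 58.3% to 63.4% of it in the WT siblings and 59.4% to 62.3% in the mutants. wnt11r, a ligand of the planar cell polarity branch, was at 23.8, 24.8 and 28.8 FPKM in the WT siblings and at 25.6, 26.0 and 27.4 FPKM in the mutants. The ranges overlapped, with a log2 difference of 0.031 (95% interval -0.19 to 0.26) that turned to -0.16 under median-of-ratios scaling and was 0.11 without WT sibling replicate 3. wnt5b, which acts in the same branch and in cartilage, was at 12.2, 12.1 and 3.67 FPKM in the WT siblings and at 12.3, 13.9 and 12.4 FPKM in the mutants. Only WT sibling replicate 3 was low, and the difference was 0.58 with that library and 0.082 without it. wnt7aa, a ligand of the brain, was at 9.35, 10.2 and 8.84 FPKM against 11.5, 12.6 and 11.7 FPKM in the mutants, without overlap (0.31, adjusted p = 0.0735 by limma, and 0.27 with 0.0478 without WT sibling replicate 3).

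wnt3, a ligand of the β-catenin branch, had the largest difference among the ligands. It was at 1.29, 1.38 and 0.355 FPKM in the WT siblings and at 3.46, 3.50 and 1.71 FPKM in the mutants. Replicate 3 was the low one in each group, and the groups still did not overlap. The difference was 0.96 ± 0.286 (SE) with an adjusted p of 0.0682 (limma), and 0.70 with an adjusted p of 0.0433 without WT sibling replicate 3. Its relative wnt3a, a β-catenin ligand of the brain and tail bud, went from 0.532, 0.715 and 0.221 FPKM to 1.06, 0.994 and 1.1 FPKM (0.48, adjusted p = 0.0730). The mutants also lay above every WT sibling for wnt9a, at 0.425, 0.787 and 0.156 FPKM against 1.24, 0.975 and 1.46 FPKM (0.63, adjusted p = 0.0635), and for wnt1 and wnt10a, with differences of 0.42 and 0.50 and adjusted p-values of 0.121 and 0.124. For wnt1 and wnt10a these were 0.26 and 0.29 without WT sibling replicate 3, with adjusted p-values of 0.154 and 0.144 (limma).

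Ligands with negative differences did not separate the groups. wnt7bb, a further Wnt7 gene, was at 2.21, 2.77 and 2.68 FPKM in the WT siblings and at 2.24, 1.30 and 1.36 FPKM in the mutants. Mutant replicate 1 reached the WT sibling range and the other mutants were lower (-0.44, adjusted p = 0.111, limma). Under quantile normalization its difference of -0.69 passed the threshold. wnt5a was at 0.915, 0.863 and 0.933 FPKM in the WT siblings and at 0.219, 0.455 and 0.881 FPKM in the mutants, which spread over a far wider range than the siblings (-0.35, adjusted p = 0.180). wnt4a and wnt4b lay between 3.51 and 4.43 FPKM in all libraries, with differences of -0.11 and 0.00026.

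2 ligands stayed under the filter and were not tested. wnt6b was at 0.333, 0.259 and 0.145 FPKM in the WT siblings and at 0.371, 0.946 and 0.787 FPKM in the mutants. wnt2ba was at 0.571, 0.789 and 0.386 FPKM in the WT siblings and at 0.337, 0.263 and 0.387 FPKM in the mutants. In the RefSeq gene order 3 pairs of ligand genes are direct neighbours: wnt3a with wnt9a, wnt10b with wnt1, and wnt6b with wnt10a. The differences within the first pair were 0.48 and 0.63, and those within the second -0.10 and 0.42.

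Of the genes that make Wnt proteins ready for secretion, wls, the carrier that takes them to the cell surface, was at 21.7, 22.8 and 23.0 FPKM in the WT siblings and at 25.6, 27.3 and 25.8 FPKM in the mutants. These ranges were narrow and did not overlap, with a difference of 0.21 (adjusted p = 0.0987, limma) that became 0.23 with an adjusted p of 0.0412 without WT sibling replicate 3 and 0.027 under median-of-ratios scaling. The acyltransferase genes porcn and porcnl, which attach the lipid, had differences of -0.077 (0.012 after rescaling to TPM) and -0.20, which were 0.065 and -0.13 without WT sibling replicate 3. porcnl was lower in every mutant (4.44, 4.19 and 4.04 FPKM) than in every WT sibling (4.54, 4.91 and 5.65 FPKM), with an adjusted p of 0.250.

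None of the 17 receptors and coreceptors was called by limma with all 6 libraries. At an unadjusted p under 0.05, 7 were higher and 1 lower, where 26.0% and 9.21% of all genes were. A positive difference was found in 15 (11 under median-of-ratios scaling). Of all 18432 tested genes, 12703 had one (9478 under that scaling). Among the Frizzled genes, fzd7a, fzd7b and fzd2 held 64.3% to 66.2% of the summed fzd FPKM in the WT siblings and 61.0% to 61.8% in the mutants, so that the shares did not overlap. fzd7a was at 52.1, 53.9 and 58.9 FPKM in the WT siblings and at 55.5, 55.6 and 48.0 FPKM in the mutants, with overlap (-0.052). fzd7b was at 24.6, 25.4 and 24.1 FPKM against 28.8, 27.9 and 29.7 FPKM, without overlap (0.21, adjusted p = 0.0953, limma, and 0.025 with 0.856 under median-of-ratios scaling). The differences of fzd2 and fzd8a were 0.15 and 0.020, and both turned negative under median-of-ratios scaling, to -0.042 and -0.16. That of fzd2 was 0.086 without WT sibling replicate 3.

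3 further Frizzled genes lay higher in every mutant. fzd9b was at 11.7, 11.8 and 9.57 FPKM in the WT siblings and at 15.4, 14.6 and 14.1 FPKM in the mutants (0.39, adjusted p = 0.0566, limma). fzd9a, its much lower copy, was at 0.314, 0.356 and 0.437 FPKM against 0.975, 0.659 and 0.728 FPKM (0.38, adjusted p = 0.0703), and here WT sibling replicate 3 was the highest sibling. fzd10 was at 13.0, 14.8 and 15.4 FPKM against 19.4, 18.3 and 16.9 FPKM (0.32, adjusted p = 0.0750). Without WT sibling replicate 3 the adjusted p-values of fzd9b, fzd9a and fzd10 were 0.0239, 0.0421 and 0.0202, and under median-of-ratios scaling they were 0.156, 0.125 and 0.451.

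fzd8b was the receptor with the opposite order. It was at 1.88, 1.97 and 2.19 FPKM in the WT siblings and at 1.26, 1.17 and 1.37 FPKM in the mutants, so that every mutant was lower and no library stood apart within its group. The difference was -0.41 ± 0.114 (SE) with an adjusted p of 0.0582 (limma), -0.37 with 0.0429 without WT sibling replicate 3, and -0.53 with 0.0403 under median-of-ratios scaling. fzd4, known in mammals as a receptor of blood vessels in the eye, had the largest SE of the family (0.403), at 2.29, 3.40 and 0.576 FPKM in the WT siblings and at 2.08, 4.99 and 3.03 FPKM in the mutants (0.57, adjusted p = 0.337, and 0.15 with 0.698 without WT sibling replicate 3).

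The Ror receptors, which bind Wnt5 proteins, were higher in every mutant. ror1 was at 2.23, 2.47 and 2.40 FPKM in the WT siblings and at 2.94, 3.47 and 3.70 FPKM in the mutants (0.37, adjusted p = 0.0834, limma). ror2 was at 3.78, 3.73 and 2.98 FPKM against 4.64, 5.27 and 5.32 FPKM (0.44, adjusted p = 0.0640). Without WT sibling replicate 3 both passed, with adjusted p-values of 0.0462 and 0.0362. Under median-of-ratios scaling neither did, with differences of 0.23 and 0.28 (adjusted p = 0.250 and 0.148, limma). The coreceptor lrp5 was at 5.13, 5.76 and 4.58 FPKM against 7.05, 6.30 and 7.23 FPKM, without overlap (0.36, adjusted p = 0.0863). Its relative lrp6 was at 7.52, 7.67 and 2.66 FPKM in the WT siblings and at 6.41, 6.60 and 5.42 FPKM in the mutants. Its difference of 0.14 was set by WT sibling replicate 3 and was -0.27 without that library (adjusted p = 0.0849, limma).

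The secreted modulators gave no call by limma and a median difference of 0.050, under that of all genes. At an unadjusted p under 0.05, 1 of the 12 was higher and 0 lower, where 26.0% and 9.21% of all genes were. Sfrp proteins bind Wnt proteins outside the cell, and sfrp1a and sfrp2 were the highest of the 12 genes. sfrp1a was at 18.9, 20.6 and 10.4 FPKM in the WT siblings and at 26.9, 29.5 and 25.9 FPKM in the mutants (0.74, adjusted p = 0.0737, limma). The groups did not overlap, and without WT sibling replicate 3 the difference was 0.45 with an adjusted p of 0.00591. sfrp2 was at 37.3, 40.2 and 15.8 FPKM in the WT siblings and at 37.4, 34.5 and 33.3 FPKM in the mutants. WT sibling replicate 3 alone was low here, and the difference of 0.27 turned to -0.14 without it. sfrp5 had overlapping groups and a difference of 0.072, which turned to -0.11 under median-of-ratios scaling and was 0.16 without WT sibling replicate 3.

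R-spondins strengthen Wnt signals by protecting the receptors from removal. rspo3 was at 8.26, 8.70 and 7.62 FPKM in the WT siblings and at 7.39, 7.31 and 7.10 FPKM in the mutants, and rspo1 was at 0.852, 0.711 and 0.981 FPKM against 0.461, 0.698 and 0.709 FPKM. The mutants lay below every WT sibling in both, by a small step, with differences of -0.15 and -0.19 and adjusted p-values of 0.292 and 0.296 (limma). rspo2 had overlapping groups and a difference of -0.00033 (0.098 after rescaling to TPM).

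Dkk1 proteins block Lrp5 and Lrp6, and dkk1a and dkk1b are themselves used as β-catenin target genes. The copies had differences of opposite sign. dkk1b was at 5.23, 3.82 and 8.07 FPKM in the WT siblings and at 4.56, 4.48 and 3.52 FPKM in the mutants (-0.33, adjusted p = 0.338, limma), and its high value in WT sibling replicate 3 stood apart. The difference was -0.085 without that library (adjusted p = 0.692). dkk1a was at 2.36, 2.87 and 2.11 FPKM against 3.46, 4.31 and 2.16 FPKM (0.29, adjusted p = 0.334). dkk3b was at 4.47, 6.17 and 5.84 FPKM against 4.29, 4.67 and 3.44 FPKM (-0.34), and dkk3a had a difference of 0.063. The groups overlapped in all 4 of these genes.

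All 5 nuclear factors had positive differences (3 of 5 under median-of-ratios scaling), where 12703 of all 18432 tested genes did (9478 under that scaling). None of the 5 was called by limma, with 2 higher at an unadjusted p under 0.05 (26.0% of all genes). tcf7l2, which binds β-catenin target genes, was at 21.1, 20.9 and 26.8 FPKM in the WT siblings and at 24.7, 18.8 and 25.6 FPKM in the mutants, so that both groups spread over the same range (0.0031, and 0.12 without WT sibling replicate 3). lef1, an activator and itself a target, was at 14.9, 16.0 and 14.6 FPKM against 19.1, 16.2 and 16.6 FPKM (0.18, adjusted p = 0.227, limma). The repressors tcf7l1a and tcf7l1b had differences of 0.21 and 0.40, which were 0.032 and 0.22 under median-of-ratios scaling (adjusted p = 0.828 and 0.418, limma). tcf7l1b was at 7.47, 5.59 and 8.20 FPKM against 9.78, 8.72 and 10.2 FPKM and passed without WT sibling replicate 3 (0.50, adjusted p = 0.0208). tcf7 was at 1.12, 1.5 and 0.531 FPKM against 2.08, 2.15 and 1.67 FPKM (0.56, adjusted p = 0.0941, and 0.36 with 0.0758 without WT sibling replicate 3).

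Zebrafish keeps many of these genes as duplicated copies or close relatives, and 23 such pairs were compared. In 17 the same gene of the pair was the higher in all 6 libraries. The mean levels differed 22.2-fold between fzd9b and fzd9a, 15.8-fold between wnt7aa and wnt7ab, 15.6-fold between wnt5b and wnt5a, and 1.01-fold between lrp6 and lrp5. The log2 differences had opposite signs in 9 pairs, and they were larger in size for the lower gene in 11. These counts include the untested wnt2ba, by its difference without a filter. Under median-of-ratios scaling fzd8a, dkk3a and wnt4b took the negative sign of their relatives. The pairs dvl3a and dvl3b, lrp5 and lrp6, sfrp1a and sfrp1b, and wnt9a and wnt9b became opposite under it. The ratio of apc to apc2 was 4.73 in the WT siblings and 2.47 in the mutants (means of 3 libraries), since apc2 made up 19.2%, 23.8% and 4.92% of their sum in the WT siblings and 25.8% to 30.8% in the mutants. The share of apc2 was lowest in WT sibling replicate 3 and higher in every mutant than in every WT sibling.

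**Figure D4:**
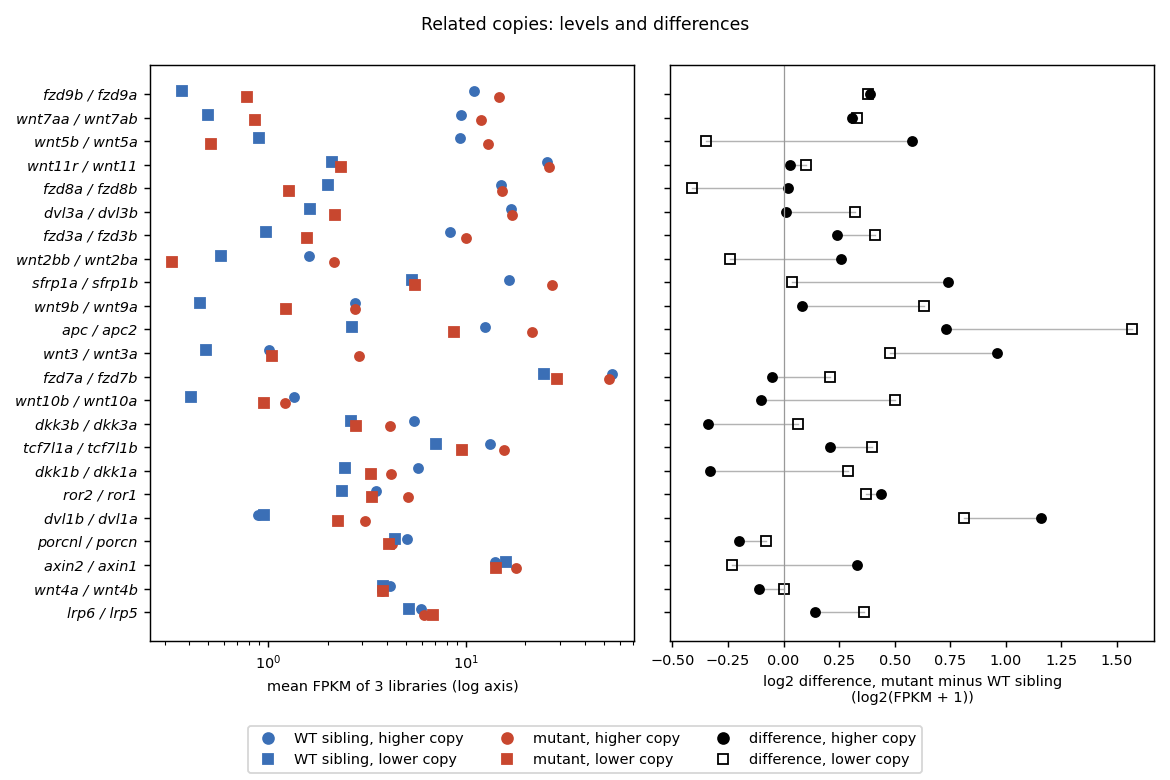
Left, mean FPKM of 3 libraries (log axis) of both genes of 23 related pairs, in WT siblings (blue) and P2RY11 mutants (red); circles, the gene with the higher overall mean; squares, the lower one. Right, log2 difference of each gene, mutant minus WT sibling, on the log2(FPKM + 1) scale; wnt5b and wnt5a are at 0.58 and -0.35 (0.082 and -0.34 without WT sibling replicate 3) and apc and apc2 at 0.73 and 1.57 (0.64 and 1.04 without it).

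The genes of the pathway that the naming rule did not take were counted from 3 lists (secretion, antagonists and surface modulators; the β-catenin branch; planar cell polarity and calcium). Of 88 tested genes, 3 rose and 0 fell by limma (31 higher and 3 lower at an unadjusted p under 0.05), where 8.23% and 3.98% of all genes were called and 26.0% and 9.21% passed unadjusted. Their median log2 difference was 0.30 (0.16 over all genes), 0.16 without WT sibling replicate 3 (0.11 over all genes) and 0.14 under median-of-ratios scaling (0.012 over all genes). Under median-of-ratios scaling without WT sibling replicate 3 it was 0.018 (-0.0023 over all genes), with 49 of the 88 positive. kremen1, a receptor for Dkk proteins, rose from 0.501, 0.744 and 0.0396 FPKM to 1.83, 1.63 and 1.63 FPKM (0.95, adjusted p = 0.0280, limma). celsr1b, a cadherin of planar cell polarity, rose from 1.45, 1.74 and 0.734 FPKM to 3.25, 2.83 and 2.43 FPKM (0.75, adjusted p = 0.0490, and 0.0642 under median-of-ratios scaling). apcdd1l, a relative of a membrane-bound Wnt inhibitor, rose from 7.73, 7.83 and 7.09 FPKM to 10.6 ± 0.713 FPKM (SD, n = 3, 0.43, adjusted p = 0.0367, and 0.128 under median-of-ratios scaling). WT sibling replicate 3 was the lowest library in 65 of the 88 (73.9%, against 47.1% of all genes), and without it 25 were called higher and 5 lower, where 20.1% and 8.11% of all genes were.

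β-catenin itself is encoded by ctnnb1 and ctnnb2. ctnnb1 was at 136, 137 and 140 FPKM in the WT siblings and at 120, 111 and 112 FPKM in the mutants. Every mutant was lower, with a difference of -0.27 ± 0.0743 (SE) and an adjusted p of 0.0572 (limma). It was -0.25 with an adjusted p of 0.0195 without WT sibling replicate 3, and -0.46 with 0.0383 under median-of-ratios scaling. Under quantile normalization it was -0.14 and did not pass (adjusted p = 0.264, limma). ctnnb2 was at 63.2, 65.9 and 22.7 FPKM in the WT siblings and at 51.1, 48.6 and 41.5 FPKM in the mutants. Its difference of 0.036 rested on the low value of WT sibling replicate 3 and was -0.45 without it (adjusted p = 0.00958).

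Of 27 tested β-catenin target genes, 2 rose and 0 fell by limma (8 higher and 0 lower at an unadjusted p under 0.05), beside 8.23% called higher and 26.0% unadjusted among all genes. The median difference was 0.15 (0.16 over all genes). The list shares 10 genes with the counts above (axin2, dkk1a, dkk1b, lef1 and tcf7, and apcdd1l, nkd1, notum1a, notum1b and znrf3). The genes that rose were apcdd1l and sp5a, a transcription factor induced directly by β-catenin. sp5a was at 2.79, 2.91 and 3.26 FPKM in the WT siblings and at 5.83, 4.91 and 5.91 FPKM in the mutants, and WT sibling replicate 3 was the highest sibling. Its log2 difference was 0.71 ± 0.122 (SE), at an adjusted p of 0.0179 (limma). The difference was 0.76 without WT sibling replicate 3 (adjusted p = 0.00278), and the call was lost under quantile normalization (0.51, adjusted p = 0.0631). The calls of sp5a, kremen1 and celsr1b were each kept in 2 of the 6 fits that left out 1 library, without WT sibling replicate 2 or 3. That of apcdd1l was kept only without WT sibling replicate 3.

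The FPKM of markers of tissues that express Wnt genes were summed in each library. These sums did not overlap between the groups for retina, skeletal muscle, and epidermis and fin fold, and overlapped for the other lists. The part of these tissues in the differences above was not tested. The sums of 18 retina and photoreceptor genes were 202 to 221 in the WT siblings and 258 to 288 in the mutants. Of these genes, 4 were called higher and 0 lower (8.23% and 3.98% of all genes), and 1 higher under median-of-ratios scaling (3.62%). In 6 the mutants lay above every WT sibling and in 1 below (35.0% and 11.7% of all genes). The sums of 24 skeletal muscle genes were 34439 to 36724 against 27892 to 31207, with 1 called higher and 1 lower. Of these muscle genes, 4 were above and 11 below every WT sibling in all mutants (35.0% and 11.7% of all genes), and without WT sibling replicate 3, 2 were called higher and 11 lower (20.1% and 8.11% of all genes). Their median log2 difference depended on scaling. It was -0.10 in the main fit, -0.30 under median-of-ratios scaling (0 called) and 0.15 under quantile normalization, where 15 of the 24 were positive. The sums of 22 epidermis and fin fold genes were 9696 to 10624 against 8197 to 9459, with 1 called lower. The median log2 difference of this list was 0.014 (0.16 over all genes), with 11 of the 22 positive. In this list 8 genes lay below every WT sibling and 4 above, and 2 were called higher and 7 lower without WT sibling replicate 3. The sums of 18 cartilage genes were 1825, 1668 and 1153 in the WT siblings, lowest in replicate 3, and 1396 to 1515 in the mutants. These cartilage sums overlapped, with 1 gene called higher and 1 lower. The groups also overlapped in the sums of 19 neuron genes (1 higher, 1 lower), 18 neural progenitor genes (1 higher) and 30 cell division genes (5 higher, 1 lower), where 8.23% of all genes were called higher and 3.98% lower. The 1 lower cell division entry and 1 of the higher ones carry the name rrm2, on different gene IDs (-0.64 and 0.47, adjusted p = 0.0431 and 0.0372, limma). No marker of these lists was at 0 in any library. The chromosome that carries p2ry11 holds 4 of the Wnt pathway genes (axin1, axin2, fzd2 and wnt9b), none of them called. At an unadjusted p under 0.05, 1 of these 4 was higher, where 26.0% of all genes were. Of the 828 tested genes on that chromosome 13.2% were called in either direction, beside 8.23% called higher and 3.98% called lower over all tested genes.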

How the data were processed

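RNA of pooled whole larvae at 3 dpf was sequenced in 6 libraries, 3 per group. Per the study's methods and the submitters' processing notes, the authors trimmed reads (cutadapt 1.17, FastQC 0.11.7), aligned them with HISAT2 2.1.0, estimated abundance with StringTie 1.3.3 and computed FPKM with Ballgown. The methods name the zebrafish build GRCz11, the processing notes a human build. The deposited values are FPKM per gene with names, without counts. Too few low values were shared between libraries to recover reads, so depth is unknown, and FPKM scaling makes a few abundant genes move all others. How reads shared by related copies were assigned is not given in the sources used here.

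The members and gene lists were chosen with earlier results of these data known. All 19071 genes were read, log2(FPKM + 1) was fitted for the 18432 with a mean of at least 0.5 FPKM with limma 3.58.1 (R 4.3.3, eBayes with a mean-variance trend, group as the only term), and p-values were adjusted over all of them by the Benjamini-Hochberg method. The fitting was tested on simulated data. The genes named were every called one; in each role the 3 of highest mean level and those with the most positive and most negative difference; pairs with differences of opposite sign; and called genes of the other lists. dvl1a, dvl2, dvl3b, the R-spondins, wnt1, wnt3a, wnt6b, wnt9a, lrp5, lrp6, ctnnb1, ctnnb2 and the genes called without WT sibling replicate 3 were added after their values were seen. RefSeq names and gene order (GRCz12tu) matched all 68 members, and no coordinates were taken from it. nkd3 and rock2b, and among the markers her4.2, krt17, myhz1.1, rrm2 and ube2c, stand on several gene IDs, each counted as a gene. Alternatives were other pseudocounts, filters and scalings (TPM, median of ratios, quantile), a replicate block, no trend, the study's criteria and leaving out each library. Median-of-ratios scaling together with leaving out WT sibling replicate 3 was chosen after seeing the data.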

Additional observations from a re-analysis of the deposited data

How the results depend on the processing

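The 2 calls, apc and dvl1b, remained without a filter, with a minimum mean of 1 FPKM, with a pseudocount of 0.5, without the mean-variance trend, with TPM, median-of-ratios and quantile scaling and with the replicate block, and apc alone remained with a pseudocount of 0.1 (1 call). Quantile normalization gave 5 calls (2 lower, fzd8b and wnt7bb), and median-of-ratios scaling and the fit without the trend 1 lower each (fzd8b). The study's criteria gave 7, with the fold on the log2(FPKM + 1) scale. Leaving out 1 library gave 0 to 17 calls, 0 to 16 higher and 0 to 1 lower. Median-of-ratios scaling without WT sibling replicate 3 gave 9, 4 higher and 5 lower (fzd8b, lrp6, rspo3, sfrp2 and wnt7bb). Of these, lrp6 and sfrp2 had positive differences in the main fit and were called lower here (adjusted p = 0.0226 and 0.0154, limma). Over all genes the main count of 2250 (1517 higher, 733 lower) ranged over 193 to 5207 with 1 library left out (117 to 3712 higher, 76 to 1495 lower). It was 4588 with both changes (2569 lower), and scaling moved its split to 668 higher and 1050 lower (median of ratios) or 980 and 1310 (quantile). The 3 calls of the other pathway lists became 6 higher with TPM, 7 with quantile normalization (3 lower), 1 higher and 2 lower with median of ratios, 0 to 30 with 1 library left out (0 to 25 higher, 0 to 5 lower) and 18 with both changes (7 higher, 11 lower). The cause was not tested.

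Signs turned mostly for small differences. Of the 66 tested Wnt pathway genes, 51 had a positive difference in the main fit (12703 of all 18432 tested genes). Under median-of-ratios scaling 35 did, and under quantile normalization 35 (9478 and 9344 of all tested genes). The turned differences below are those of some genes only, in every fit given. Under median-of-ratios scaling they became -0.0076 (lef1), -0.019 (lrp6), -0.042 (fzd2), -0.049 (dvl2), -0.080 (dkk3a), -0.11 (sfrp5), -0.15 (wnt4b, ctnnb2), -0.16 (fzd8a, wnt11r), -0.17 (dvl3a) and -0.18 (tcf7l2). With WT sibling replicate 3 also left out they were -0.020 (dvl2), -0.026 (tcf7l2), -0.033 (wnt11r), -0.055 (wnt5b), -0.057 (fzd2), -0.066 (dkk3a), -0.077 (dvl3b), -0.098 (fzd8a), -0.14 (dvl3a, wnt4b), -0.28 (sfrp2), -0.40 (lrp6) and -0.60 (ctnnb2). Under quantile normalization they were -0.0021 (wnt2bb), -0.027 (sfrp5), -0.037 (wnt11r), -0.049 (dvl2), -0.062 (tcf7l2), -0.072 (dvl3a), -0.076 (fzd8a), -0.083 (lrp6), -0.19 (dkk3a) and -0.21 (wnt4b). TPM turned porcn to 0.012, fzd7a to 0.052 and rspo2 to 0.098, and pseudocounts of 0.1 and 0.5 turned rspo2 to 0.00067 and 0.00016. With 1 library left out the differences spanned 0 for axin1 (-0.41 to 0.13), dvl3a (-0.047 to 0.083), fzd7a (-0.089 to 0.017), fzd8a (-0.026 to 0.080), lrp6 (-0.27 to 0.35), porcn (-0.19 to 0.065), rspo2 (-0.11 to 0.061), sfrp2 (-0.14 to 0.51), sfrp5 (-0.013 to 0.16), tcf7l2 (-0.076 to 0.14), wnt10b (-0.18 to 0.043), wnt11r (-0.023 to 0.11), wnt4b (-0.033 to 0.041) and ctnnb2 (-0.45 to 0.30).

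Same-numbered libraries deviated together with correlations of 0.016, 0.0718 and 0.138 only, not every library correlated best with its own number, and the labels give the numbers no shared clutch. The replicate block gave 3 calls among the members (wnt3 added, adjusted p = 0.0268 by limma), 1 among the other pathway lists and 1076 over all genes (672 higher, 404 lower). Lowly expressed genes such as wnt10a rest on values under 1 FPKM, whose counting error cannot be given without the depth.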
